A study of Homo sapiens with 18 samples.

Results

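The gene expression described here is that of SKOV-3 cells stably transfected with the luteinizing hormone receptor (LHR+) in comparison with LHR- SKOV-3 cells, both without luteinizing hormone (LH). SKOV-3 is an established line from a human ovarian carcinoma. The 6 arrays of these 2 groups, 3 LHR- and 3 LHR+, were chosen by their labels from 18 arrays, and every probe set was compared. The other 12 arrays hold LHR+ cells given LH at 50 ng/ml for 1, 4, 8 or 20 h, 3 arrays per time (LH1, LH4, LH8 and LH20). Their intensities appear below as values beside the comparison. They also entered the estimate of the spread behind every SE and p, and the choice of 1 probe set per gene. The LHR- cells are called the parent line in the study's methods and mock-transfected cells elsewhere. Whether the LHR+ cells are 1 clone or a pool of transfectants is not given in the sources used here. Receptor expression therefore cannot be told apart from transfection, selection or the choice of a clone in this comparison. The study describes the 3 samples of a group as independent replicates. Each p below rests on the spread between such samples, pooled over the 6 groups of the series. It does not measure the spread between separately transfected lines.

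LHR is a G protein-coupled receptor for LH and chorionic gonadotropin. In the ovary it is found on theca cells, luteal cells and granulosa cells of late follicles, where it couples through a stimulatory G protein to adenylyl cyclase, and the cAMP formed activates protein kinase A. Genes of steroid synthesis and of matrix remodelling at ovulation are its known targets there. The comparison asks which genes differ when the receptor is present and its hormone is not added.

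Expression was measured with Affymetrix U133 Plus2 arrays as probe set intensities on a linear scale, with array medians of 47.2 to 53.1 in the 6 arrays. Fold changes are given as log2 of LHR+ over LHR- after 1 was added to each intensity, which makes the fold change of a dim gene smaller than the ratio of its intensities. A probe set or gene was called where limma gave p under 0.05 and a Benjamini-Hochberg adjusted p under 0.1, the fold change reached 2, and the 3 arrays of either group did not overlap with those of the other. The smallest two-sided p of an exact permutation with 3 arrays against 3 is 0.1, and every p below comes from the moderated variances of limma instead. In all 18 arrays the nearest other array belonged to the same group. Intensity in a bulk culture does not tell fewer cells of a kind from less RNA per cell.

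Of 54613 probe sets, 1009 were called up in LHR+ cells (1.85%) and 828 down (1.52%), together 3.36%. With 1 probe set for each of 19775 genes, 463 genes were up-regulated (2.34%) and 368 down-regulated (1.86%), together 4.2% of the genes. An adjusted p under 0.1 from limma was reached by 2816 genes, 1618 higher and 1198 lower in LHR+ cells. These shares and counts over all genes are the background for every gene list below. The median log2 fold change over all genes was -0.00345. When only genes with a mean of at least 200 in the higher group were counted, 188 of 10025 were up-regulated (1.88%) and 158 down-regulated (1.58%), together 3.45%. Of 448 called genes with more than 1 probe set of their own, 181 had another probe set called the same way and 3 had one called the opposite way. When all probe sets of a gene were averaged, the following genes named below no longer met the call, namely ADAMTS6, ADAMTS9, AKAP12, ALDH1A3, BCL2L11, CDKN1C, CFLAR, CLDN4, ERBB3, FAS, FZD2, GSTT1, HES2, IFIT3, IL6R, IL7R, ITGB4, KCNJ16, KCNQ1, LAMA4, MMP2, PDE10A, PDE7B, PDE9A, PDGFB, PTGS2, SAMD9, SERPINB5, SPINT1, TGM2, UNC5C and WT1. An unmoderated test of the 2 groups ended the calls of 33 named genes. These were ADAMTS3, CASP1, CCN3, COL13A1, COL15A1, COL3A1, COL4A3, CSF3, DDB2, DLK2, EGFL7, FAP, FAS, FZD2, GBP1, GSTP1, HES6, IL1B, IL7, IL7R, INHBB, ITGB4, KCNJ16, KCNQ1, MFAP2, NKD2, OVOL2, PDE7B, PTGS2, SFRP1, SLIT3, TNFSF10 and UNC5C.

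The transfected gene was read by a single probe set, LHCGR. Its intensities were 0.978, 0.925 and 0.383 in the LHR- arrays and 1.57, 0.344 and 1.07 in the LHR+ arrays. The groups overlapped, and limma gave 0.15 on the log2 scale (SE 0.36, adjusted p = 0.885). These values lie near the lowest of the array, and in the 12 arrays with LH they ranged from 0.196 to 4.11. Whether this probe set lies in the part of the gene that was transfected is not given in the sources used here, so it checks nothing about the labels.

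The genes with the largest increases among those of at least 200 in LHR+ cells covered several functions. QPCT, the glutaminyl cyclase that forms pyroglutamate at peptide ends, was read at 9.69, 9.46 and 7.03 in LHR- cells and at 888, 815 and 984 in LHR+ cells. The arrays of the groups lay far apart, and the log2 fold change was 6.53 (SE 0.14, adjusted p = 3.68e-12 from limma). RBP7, a cytosolic retinol-binding protein, was read at 53.8, 47.3 and 45.9 in LHR- cells and at 2494, 2692 and 2725 in LHR+ cells, which is 5.72 on the log2 scale (SE 0.12). COL11A1, a chain of a minor fibrillar collagen, was close to the lowest intensities in LHR- cells, at 9.37, 9.57 and 1.56. In LHR+ cells it was at 299, 298 and 284, and its other 2 probe sets were also called up. HYI, a putative hydroxypyruvate isomerase, went from 31.8, 35.6 and 29.8 to 937, 915 and 882, with 3 of 3 probe sets called up. The zinc finger gene ZNF114 went from 25.6, 30.3 and 28.9 to 858, 1038 and 838. All of these genes were separated between the groups without overlap, as the call requires.

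Further large increases were those of PDZK1IP1, a small membrane protein (log2 fold change 3.92), CACNG4, an auxiliary subunit of calcium channels and AMPA receptors (3.81), TMEM178B (3.71), ZNF22 (3.54) and MEGF6 (3.43). SANBR was at 93.4, 61.0 and 45.1 in LHR- cells and at 2137, 2012 and 2749 in LHR+ cells by its brightest probe set. Its other probe set was not called, with a log2 fold change of 0.37, so the difference of this gene depends on the probes. OR7E19P, an olfactory receptor pseudogene, was at 194, 184 and 264 in LHR- cells and at 2920, 3106 and 3290 in LHR+ cells. The family of this pseudogene has many near-identical copies, and the probes may read more than one of them.

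Among the most abundant genes called up was OXTR, the oxytocin receptor, a receptor that couples to phospholipase C. It was read at 2515, 2640 and 2785 in LHR- cells and at 6323, 6980 and 7531 in LHR+ cells, which is 1.39 on the log2 scale (SE 0.1, adjusted p = 1.49e-06 from limma). GFRA1, the co-receptor of glial cell line-derived neurotrophic factor, rose from 1395, 1423 and 1611 to 4426, 4342 and 4420. Its signalling partner RET rose as well, from 42.8, 53.6 and 62.9 to 267, 252 and 249, a difference of 2.26 in log2 (adjusted p = 2.21e-06 from limma). BNIP3, a mitochondrial protein of mitophagy, was at 2833, 2775 and 2493 and then at 5871, 5864 and 5862. PLAC8 increased by 1.51 on the log2 scale. GSTP1, a glutathione transferase, lay at the threshold with 1.03, and its call was lost when only the 6 arrays were fitted (adjusted p = 0.111 from limma). It was also lost with equal array medians (0.99) and without LHR- replicate 2 (0.82) or LHR+ replicate 3 (0.98). ASS1, the argininosuccinate synthase of arginine synthesis, and UCP2, a mitochondrial carrier, were chosen for mention once their values were known. ASS1 was at 202, 197 and 250 in LHR- cells and at 1841, 1764 and 1857 in LHR+ cells. UCP2 was at 73.0, 109 and 52.0 and at 564, 764 and 471.

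**Figure D1:**
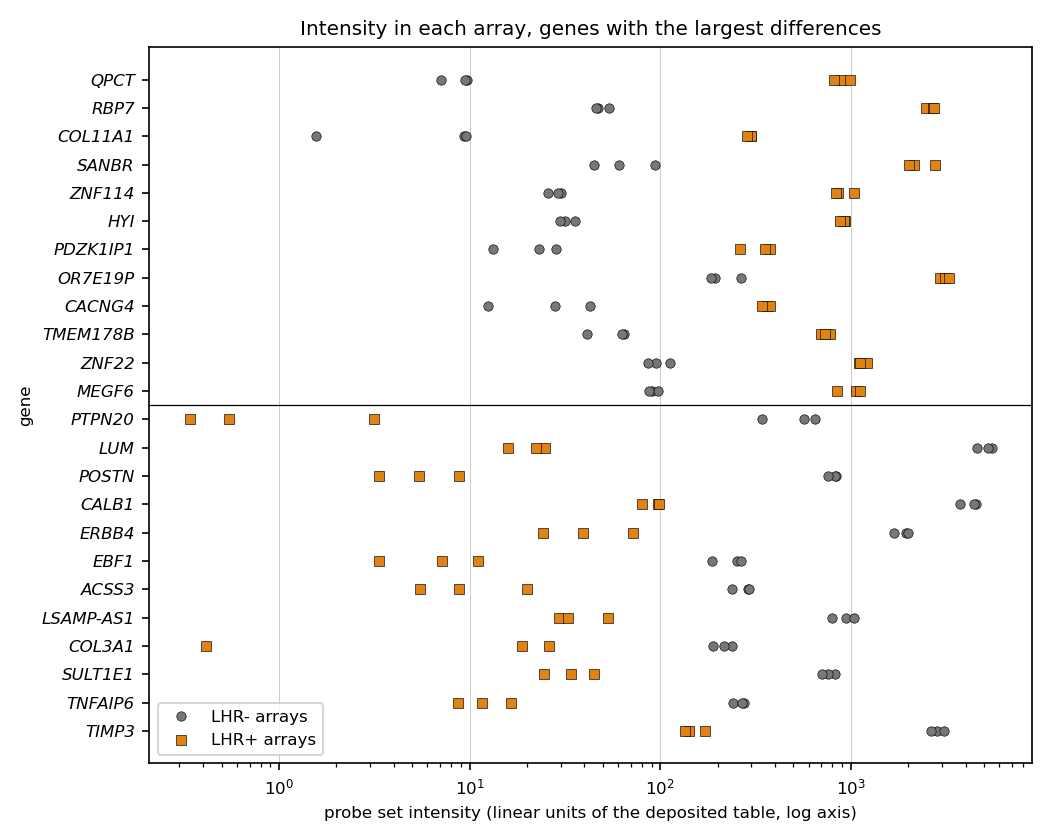
Intensity of 1 probe set per gene (log x axis) in the 3 LHR- arrays (grey circles) and the 3 LHR+ arrays (orange squares), for the 12 genes with the largest increase (above the line) and the 12 with the largest decrease (below it) among called genes of at least 200 in the higher group. The groups do not overlap for any gene, a property that the call requires, and PTPN20 and QPCT show some of the widest gaps.

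Among the genes with the largest decreases, PTPN20, a protein tyrosine phosphatase whose gene has near-identical copies, was read at 567, 650 and 340 in LHR- cells and at 3.16, 0.339 and 0.549 in LHR+ cells. This is a log2 fold change of -7.93 (SE 0.57, adjusted p = 1.34e-06 from limma), with the LHR+ arrays among the lowest intensities. LUM, which encodes the collagen-binding proteoglycan lumican, was at 5495, 5267 and 4588 in LHR- cells and at 24.7, 15.8 and 22.4 in LHR+ cells. Both of its probe sets were called down. CALB1, the calcium buffer calbindin, fell from 4520, 4433 and 3725 to 97.8, 80.3 and 98.2, and its second probe set gave a log2 fold change of -5.75. ERBB4, the neuregulin receptor of the epidermal growth factor receptor family, was at 1937, 1690 and 2003 in LHR- cells and at 71.5, 39.5 and 24.2 in LHR+ cells. Of its 4 probe sets, 3 were called down, and the 1 not called was dim in both groups.

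TIMP3, the matrix-bound inhibitor of metalloproteinases, fell from 2816, 2626 and 3072 to 141, 134 and 172, with all 4 probe sets called at log2 fold changes between -4.32 and -3.94. POSTN, the matrix protein periostin, had a log2 fold change of -6.96, and 2 of its 4 probe sets were called. The other 2 were dim, with values of -1.12 and 0.84. EBF1, a transcription factor of B cell and mesenchymal development, had a log2 fold change of -4.96 and was called with all 4 probe sets. SULT1E1, the estrogen sulfotransferase, was at 821, 758 and 704 in LHR- cells and at 34.0, 45.0 and 24.5 in LHR+ cells. TNFAIP6, a hyaluronan-binding protein, fell by 4.35 on the log2 scale, the acyl-CoA synthetase ACSS3 by 4.63, and LSAMP-AS1, an antisense transcript, by 4.6. COL3A1 decreased by 4.56 on the log2 scale, a call that was lost when only the 6 arrays were fitted (adjusted p = 0.161 from limma).

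The most abundant gene called down was PTGIS, the prostacyclin synthase, with 8993, 9158 and 9094 in LHR- cells and 2842, 3337 and 2765 in LHR+ cells. Its log2 fold change was -1.61 (SE 0.14, adjusted p = 6.26e-06 from limma), and its other 2 probe sets were also called. COL1A2, a chain of type I collagen, fell from 7154, 7193 and 7099 to 1096, 1160 and 1009. SPARC, a collagen-binding glycoprotein, fell from 7058, 6683 and 7368 to 2548, 2443 and 2621. The arrays of these 3 genes were tight within each group and, as the call requires, did not overlap between the groups.

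The gene lists were chosen with earlier results of these data known. The study also names collagens and metalloproteinases among the genes lower in LHR+ cells. The called share of a list therefore describes its members and tests nothing. Genes of the matrix were called in both directions, more of them down than up. Of 31 collagen genes, 6 were down-regulated and 3 up-regulated, beside 1.86% and 2.34% of all genes. The median log2 fold change was -0.42, or -0.20 with a pseudocount of 16, and 8 of the genes were below 16 in both groups. Besides COL1A2 and COL3A1, the collagens called down were COL5A2, COL6A3, COL15A1 and COL8A1. COL15A1 lost its call with the 6 arrays alone (adjusted p = 0.278 from limma), with a pseudocount of 16 (-0.76), and without LHR+ replicate 2 or 3 or LHR- replicate 2 or 3 (adjusted p = 0.114 to 0.278 from limma). COL5A2, a regulator of collagen fibre width, was at 3992, 4309 and 3223 in LHR- cells and at 980, 1060 and 831 in LHR+ cells. Those called up were COL11A1, COL13A1 and COL4A3. The other probe sets of COL13A1, at -0.42 and 1.26 on the log2 scale, were not called. COL4A3 was at the fold threshold (1.01) and lost its call under equal array medians (0.97), quantile normalization (0.99) and a pseudocount of 16 (1.00), and without any of LHR+ replicates 1 and 3 and LHR- replicates 1 and 3 (0.91 to 1.00). COL1A1, the partner of COL1A2 in type I collagen, differed by -0.42 on the log2 scale (limma, adjusted p = 0.0094) and did not reach the fold threshold.

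Of 39 other matrix proteins and cross-linking enzymes, 9 were down-regulated and 2 up-regulated, with a median of -0.42, or -0.26 with a pseudocount of 16. TNC, the glycoprotein tenascin-C, was at 1518, 1988 and 2181 in LHR- cells and at 423, 273 and 399 in LHR+ cells by its brightest probe set, and its other 2 probe sets were not called. CCN2, the connective tissue growth factor, fell from 1938, 2170 and 1711 to 658, 687 and 607. LOX, the lysyl oxidase that cross-links collagen, fell by 1.35 on the log2 scale. DCN, HAPLN1 and CCN3 were the other members called down beside LUM, POSTN and SPARC, and CCN3 was not called without LHR+ replicate 2 (-0.91). FBLN2, a fibulin of elastic fibres, moved the other way, from 373, 488 and 474 to 1122, 1113 and 1028, and MFAP2, which was dim in both groups, was also called up. The call of MFAP2 was lost with a pseudocount of 16 (0.94), with the 6 arrays alone (adjusted p = 0.147 from limma), and without LHR+ replicate 1 or 3 or LHR- replicate 1 or 2 (adjusted p = 0.104 to 0.164 from limma).

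Of 34 matrix proteases and their inhibitors, 9 were down-regulated and 2 up-regulated, with a median of -0.26. MMP13, a collagenase, was at 3547, 3272 and 3502 in LHR- cells and at 255, 269 and 202 in LHR+ cells, which is -3.83 on the log2 scale (SE 0.16, adjusted p = 4.19e-09 from limma). MMP1, the interstitial collagenase, fell from 4962, 4936 and 6451 to 2129, 2242 and 1647. MMP2, a gelatinase, fell from 6540, 7590 and 5939 to 3136, 3023 and 2420. In these 3 metalloproteinase genes every LHR+ array lay below every LHR- array, as the call requires. The inhibitors TIMP3, SERPINB5 and SERPINI1 and the plasminogen activator PLAT were also called down, so both enzymes and inhibitors are among the 9. The remaining 2 were ADAMTS6 and FAP, a surface protease. The call of FAP was lost in 5 of the 6 fits that left out 1 array, all but the one without LHR+ replicate 1 (adjusted p = 0.105 to 0.198 from limma). ADAMTS3 and ADAMTS9, procollagen and proteoglycan proteases, were called up.

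Of 28 integrin and laminin genes, 3 were down-regulated (ITGA11, LAMA4 and LAMB3) and 1 up-regulated (ITGB4), with a median of -0.29. ITGA11, the α chain of a collagen receptor, went from 88.3, 147 and 138 to 18.8, 15.3 and 21.2. LAMB3, a chain of the epithelial laminin that ITGB4 binds as part of its integrin, went from 4039, 4448 and 5079 to 2062, 2220 and 2278. LAMB3 was not called without LHR- replicate 3. ITGB4 was at the threshold (1.02) and lost its call under equal array medians (0.98), quantile normalization (0.95) and a pseudocount of 16 (0.88), and without LHR+ replicate 2 or LHR- replicate 1.

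Markers of fibroblasts were set beside these results. Of 16 such genes, 6 were down-regulated, and all 6 (LUM, COL3A1, FAP, COL1A2, DCN and COL6A3) also belong to the matrix lists above. The median was -0.38, and 1 gene, PDGFRB, was up-regulated. The summed intensity of the 16 genes was 38842 to 39977 in the LHR- arrays and 22757 to 24395 in the LHR+ arrays. Most of this difference lay in COL1A2, LUM and COL1A1, the last of them not called. Their group means were 7148, 5117 and 16907 in LHR- cells and 1088, 21.0 and 12626 in LHR+ cells. The surface markers PDGFRA and THY1 were low in both groups, at 11.2 to 31.8 in LHR- cells and 17.0 to 46.6 in LHR+ cells, and TCF21 did not exceed 6.86 in any of the 6 arrays. S100A4, at 7828 to 8636, and FBLN1 did not pass the test. The part of this marker sum in the matrix results was not tested.

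**Figure D2:**
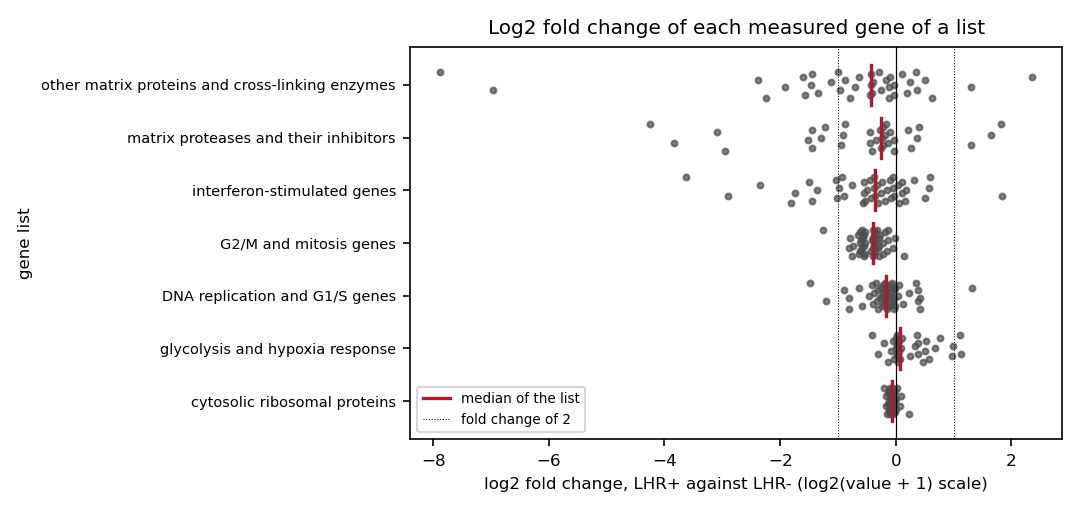
Log2 fold change of LHR+ against LHR- cells (x axis) for each measured gene (grey point) of 7 gene lists (y axis), with the median of each list in red, no difference as a solid line and a fold change of 2 as dotted lines. The other matrix proteins spread from -7.88 to 2.36, the proteases from -4.25 to 1.82 and the interferon-stimulated genes from -3.63 to 1.85, whereas the 48 G2/M genes form a narrow group around -0.39 and the 37 ribosomal protein genes lie close to 0.

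Markers of ovarian carcinoma and of the SKOV-3 line gave mixed values. Of 23 such genes, 4 were down-regulated (LCN2, EPCAM, SPINT1 and CLDN4) and 1 up-regulated (WT1), with a median of -0.17. LCN2, the iron-carrier binding protein lipocalin 2, fell from 1042, 1029 and 1247 to 266, 266 and 262. EPCAM, an epithelial adhesion protein, fell from 226, 251 and 143 to 63.9, 76.0 and 71.0. ERBB2, the receptor whose gene is amplified in this line, was at 1974, 2740 and 2524 in LHR- cells and at 2732, 2797 and 2971 in LHR+ cells and did not pass the test. PAX8, KRT8, KRT18, KRT19, MUC1 and CD24 were well expressed in both groups and did not pass the test either, while MUC16 was between 0.698 and 6.53 in the 6 arrays. Markers of other cells were low throughout. Of 12 endothelial markers only EGFL7 was called (up, median of the list -0.16, summed intensity 247 to 262 in LHR- and 280 to 355 in LHR+ arrays). None of 12 leukocyte markers was called (median -0.41, or -0.15 with a pseudocount of 16, sums of 117 to 137 and 67.2 to 124). Of 10 mesothelial markers 1 was called, WT1, which is also on the carcinoma list (median -0.29, sums of 238 to 296 and 335 to 415).

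In epithelial junctions, 4 of 39 genes of keratins, desmosomes and tight junctions were down-regulated and none up-regulated, with a median of -0.12. JUP, the plakoglobin of desmosomes and adherens junctions, was at 663, 599 and 704 in LHR- cells and at 114, 91.5 and 90.6 in LHR+ cells. The keratins KRT14 and KRT16 were dim and fell by 2.88 and 4.65 on the log2 scale. Of 26 cadherins and epithelial-mesenchymal transition genes, 3 were down-regulated (OVOL2, CTNNA2 and EPCAM) and none up-regulated, with a median of -0.13. OVOL2 lost its call with the 6 arrays alone (adjusted p = 0.115 from limma). Of 10 connexins only GJD2, which was dim, was called (down, median of the list -0.29), and not with a pseudocount of 16 (-0.69). Of 19 protocadherins outside the clusters, DCHS1 was called up and PCDH18 down, with a median of -0.07. Of 51 axon guidance genes 1 was called in each direction, SLIT3 up and UNC5C down, with a median of -0.13. SLIT3, a secreted ligand of ROBO receptors, was at 5.88 to 22.7 in LHR- cells and rose to 124, 181 and 184. UNC5C, a netrin receptor, was at 75.3 to 94.3 in LHR- and 3.55 to 16.1 in LHR+ cells, and its call was lost without LHR+ replicate 3 or LHR- replicate 1.

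The machinery to which LHR couples was examined next. Of 32 genes of gonadotropin receptors and of G protein and cAMP signalling, 1 was down-regulated and none up-regulated, with a median of -0.06. GNAS, the α subunit of the stimulatory G protein, was at 11690, 13568 and 13031 in LHR- cells and at 11216, 12222 and 12027 in LHR+ cells, and the groups overlapped. PRKACA, the catalytic subunit of protein kinase A, and CREB1, the transcription factor it phosphorylates, both had log2 fold changes of -0.16 and did not pass the test. The gene called was AKAP12, a scaffold that binds protein kinase A, at 2750, 2694 and 2385 in LHR- cells and at 1166, 1145 and 1085 in LHR+ cells. Of its 5 probe sets, 4 were called down. In LHR+ cells with LH its group means were 2593, 5943, 3966 and 4436 at 1, 4, 8 and 20 h.

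Of 20 genes known to be induced by cAMP, 2 were down-regulated (BTC and PTGS2) and none up-regulated, with a median of -0.18. An adjusted p under 0.1 from limma was reached by 9 of the 20, 6 lower and 3 higher, beside 2816 of 19775 genes. NR4A1 and EREG did not pass the test. BTC, a ligand of the epidermal growth factor receptor family, went from 191, 168 and 151 to 33.9, 39.8 and 27.5, and its call was lost without LHR+ replicate 3 or LHR- replicate 1. PTGS2, the inducible cyclooxygenase, was low in both groups, at 24.2 to 31.3 and 9.67 to 15.1. Its call was lost with a pseudocount of 16 (-0.69), with an intensity trend (adjusted p = 0.143 from limma) and without LHR+ replicate 1 or 2 or LHR- replicate 1 or 2 (adjusted p = 0.174 to 0.195 from limma). None of 18 granulosa and steroidogenic genes was called (median 0.01, or -0.03 with equal array medians), and 12 of them were below 16 in both groups. STAR, which carries cholesterol into mitochondria, was at 8.22 to 32.4 in the 6 arrays. PKIA, the heat-stable inhibitor of protein kinase A, was chosen for mention once its values were known. It was at 379, 432 and 387 in LHR- cells and at 27.6, 35.9 and 32.6 in LHR+ cells, which is -3.61 on the log2 scale (SE 0.21, adjusted p = 1.78e-07 from limma).

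Phosphodiesterases, the enzymes that hydrolyse cAMP and cGMP, had 4 of 20 genes up-regulated and 1 down-regulated, with a median of 0.28, or 0.17 with a pseudocount of 16. PDE1C, which calcium and calmodulin activate, was at 509, 650 and 481 in LHR- cells and at 1856, 1767 and 1922 in LHR+ cells, with 5 of 6 probe sets called up. PDE9A and PDE10A rose by 1.30 and 1.16 on the log2 scale. PDE7B, a cAMP-specific enzyme, was at 89.6, 68.3 and 121 and at 229, 177 and 194. The call of PDE7B was lost when only the 6 arrays were fitted (adjusted p = 0.124 from limma) and without LHR- replicate 2. PDE5A, which is specific for cGMP, fell from 2090, 1883 and 1736 to 765, 731 and 787 by its brightest probe set. Of its other probe sets, some were called down and others, at -1.18 to 0.22 on the log2 scale, were not called.

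**Figure D3:**
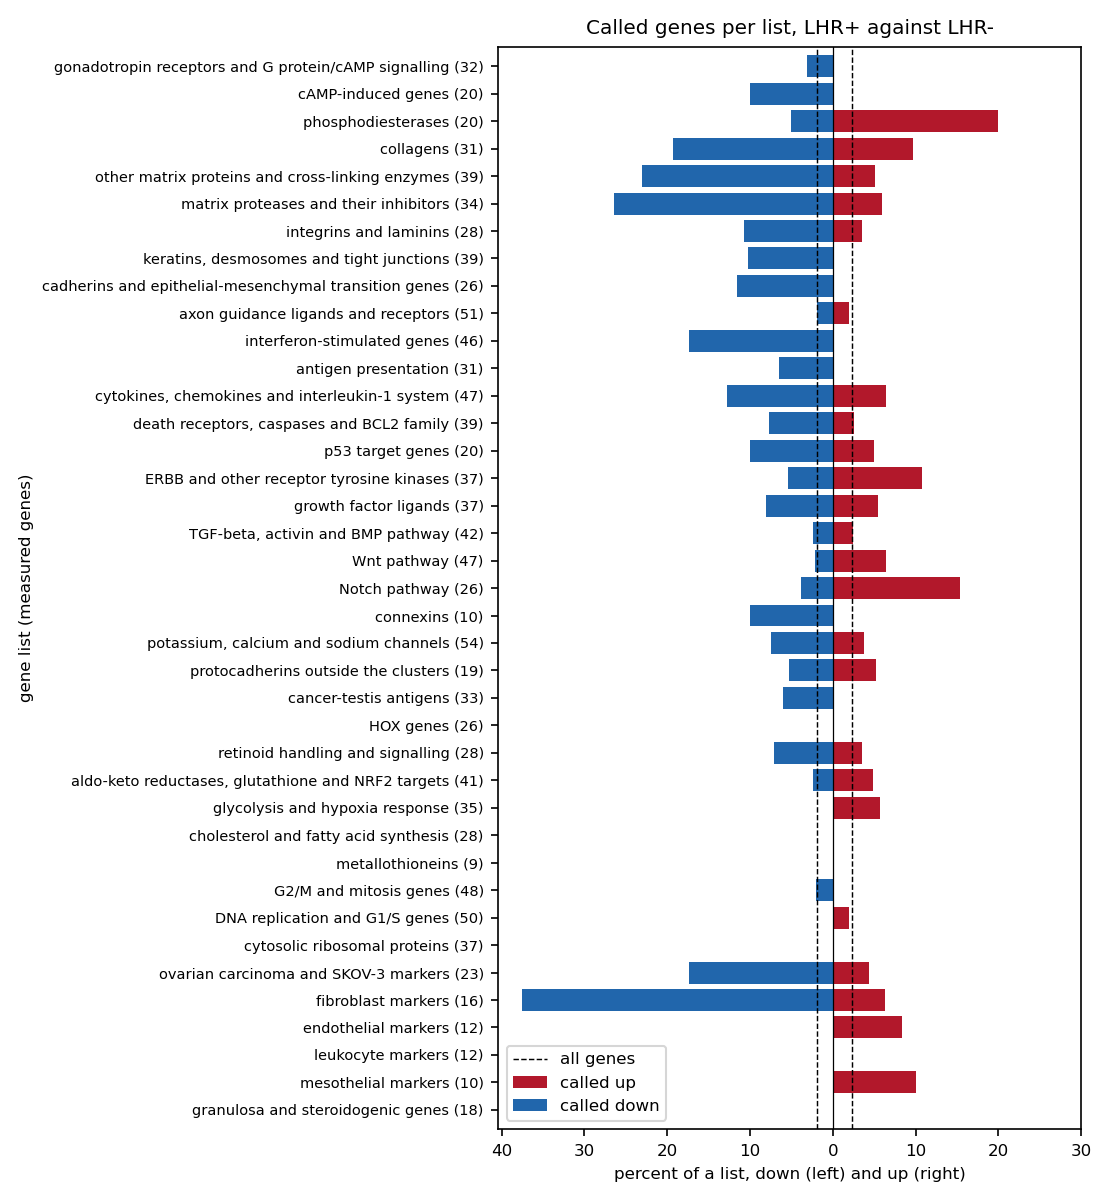
Share of the measured genes of each of 39 lists that were called up (red, right) or down (blue, left) in LHR+ cells against LHR- cells, in percent on the x axis, with the number of measured genes in brackets. Dashed lines mark the shares over all genes, 2.34% up and 1.86% down. The collagen, other matrix and protease lists are among several that extend beyond both lines, as do the phosphodiesterase, receptor kinase and Notch lists. The TGF-beta list passes both lines with 1 gene called each way. The ribosomal, cholesterol and HOX lists are among those without a called gene.

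Receptor tyrosine kinases changed in both directions, with 4 of 37 up-regulated (RET, ROR1, ERBB3 and PDGFRB) and 2 down-regulated (ERBB4 and ROS1), and a median of 0.24, or 0.04 with a pseudocount of 16. ROS1, a receptor kinase of the insulin receptor group, fell from 1140, 1022 and 888 to 91.1, 115 and 105 in LHR+ cells. ROR1, a Wnt5a receptor, rose from 20.0, 19.4 and 13.2 to 112, 69.8 and 71.0. ERBB3 was dim, and its call was lost without any one of the 6 arrays (adjusted p = 0.122 to 0.23 from limma), with equal array medians, quantile normalization or a pseudocount of 16, and with an unmoderated test of the 6 groups. PDGFRB, at 1.04 on the log2 scale, missed the fold threshold under equal array medians (1.00), quantile normalization (0.96) and a pseudocount of 16 (0.94), and without LHR+ replicate 2 or 3 or LHR- replicate 2.

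Of 37 genes on the growth factor ligand list, 3 were down-regulated (PTN, BTC and KITLG) and 2 up-regulated (FGF12 and PDGFB), with a median of -0.21. FGF12 is on the list by its family name, but it is an intracellular protein and not a secreted ligand. PTN, the heparin-binding growth factor pleiotrophin, was at 953, 729 and 548 in LHR- cells and at 57.8, 26.5 and 67.1 in LHR+ cells, and 3 of its 4 probe sets were called. KITLG, the stem cell factor, fell from 1619, 1714 and 1425 to 399, 418 and 438, with 2 of 4 probe sets called. In neither gene did the groups overlap, as the call requires. PDGFB, a platelet-derived growth factor chain, was at the threshold with 1.03 and lost its call under equal array medians (0.99), quantile normalization (0.96) and a pseudocount of 16 (0.91), and without LHR- replicate 3.

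In the Notch pathway 4 of 26 genes were up-regulated and 1 down-regulated, with a median of 0.09. JAG2, a ligand, rose from 172, 179 and 168 to 522, 536 and 425 with both probe sets called. HES1, the best known target of Notch signalling, fell from 1355, 1154 and 1466 to 380, 276 and 323. The related repressors HES2 and HES6 were called up, as was DLK2. HES6 lost its call with the 6 arrays alone and without LHR- replicate 3, and HES2 when all probe sets of the gene were averaged (0.16). DLK2 lost its call in the fit of the 6 arrays, under equal array medians, quantile normalization and a pseudocount of 16, and without LHR+ replicate 2 or 3 or LHR- replicate 2 or 3.

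Of 47 genes on the Wnt pathway list, 3 were up-regulated (NKD2, SFRP1 and FZD2) and 1 down-regulated (TCF4), with a median of -0.08. TCF4 here is the E-box transcription factor of that symbol, whose name is shared with a Wnt effector encoded by another gene. It fell from 1971, 2024 and 1490 to 546, 475 and 442, and all 8 of its probe sets were called down. SFRP1, a secreted Wnt antagonist, rose by 1.35 on the log2 scale. NKD2 and FZD2 lost their calls with the 6 arrays alone, NKD2 also without LHR- replicate 1 or 2, and FZD2 with equal array medians (1.00), quantile normalization (0.98), and without LHR+ replicate 1 or LHR- replicate 2. In the TGF-beta, activin and BMP pathway, 1 of 42 genes was called up (INHBB) and 1 down (BAMBI), with a median of -0.12. BAMBI, a decoy receptor of that pathway, fell from 3433, 3492 and 3641 to 1548, 1633 and 1608. The call of INHBB, a chain of activin B, was lost with the 6 arrays alone (adjusted p = 0.29 from limma).

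Interferon-stimulated genes were called in 1 direction. Of 46 measured, 8 were down-regulated (17.4%) and none up-regulated, beside 1.86% and 2.34% of all genes, with a median of -0.37. An adjusted p under 0.1 from limma was reached by 18 genes on the lower side and 3 on the higher side. Over all 19775 genes it was reached by 1198 on the lower side and 1618 on the higher side. IFIH1, the sensor of long double-stranded RNA, was at 157, 92.5 and 166 in LHR- cells and at 8.48, 9.86 and 11.7 in LHR+ cells. SAMD9, a large antiviral protein, fell from 2433, 2704 and 2356 to 1198, 1317 and 1203, and its paralogue SAMD9L fell by 1.5 on the log2 scale. IFI44 was at 212, 272 and 259 and then at 98.2, 83.7 and 87.4. IFIT3 was at 449, 387 and 483 and then at 195, 236 and 212. In these 5 genes the LHR+ arrays lay below all LHR- arrays, as the call requires. SAMD9 and IFIT3 were close to the fold threshold, at -1.01 and -1.03. SAMD9 missed it without LHR+ replicate 1 or 3 or LHR- replicate 2 (-0.99 to -0.95), and IFIT3 missed it with a pseudocount of 16 (-0.98) and without LHR+ replicate 1 or LHR- replicate 3 (-0.97 and -0.96). TRIM22 and GBP3 were also called, as was GBP1, which was dim and lost its call with the 6 arrays alone (adjusted p = 0.166 from limma) and without LHR+ replicate 2 or LHR- replicate 1 or 2 (adjusted p = 0.102 to 0.148 from limma). ISG15 and IFIT1 had log2 fold changes of -0.32 and -0.89 and missed the fold threshold, and MX1 was on the other side of 0 with 0.51.

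Interferon acts on many of these genes through an element in their promoters, the interferon-stimulated response element. A pair of GAAA blocks with any 2 bases between them was searched on both strands in the RefSeq promoters (GRCh38.p14), from 250 bases before to 50 bases after the gene start. It was found in 453 of 15384 promoters of measured genes (2.94%), in 24 of 37 promoters of the interferon list (64.9%), and in 6 of 7 promoters of its members called down (85.7%). Among all called genes it was found in 20 of 267 promoters of those down-regulated (7.49%) and 4 of 352 of those up-regulated (1.14%). Stretches upstream of 5 interferon genes called down are shown for this motif, which is in capitals and is read on the gene's strand, 5′ to 3′.
IFIT3 (chr10:89327850-89327909, plus strand): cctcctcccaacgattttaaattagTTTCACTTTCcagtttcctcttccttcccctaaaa
IFI44 (chr1:78649746-78649788, plus strand): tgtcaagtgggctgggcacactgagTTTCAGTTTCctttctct
IFIH1 (chr2:162318685-162318730, minus strand): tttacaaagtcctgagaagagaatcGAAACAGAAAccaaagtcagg
SAMD9 (chr7:93118081-93118140, minus strand): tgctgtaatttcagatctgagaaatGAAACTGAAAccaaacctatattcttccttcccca
GBP1 (chr1:89065301-89065360, minus strand): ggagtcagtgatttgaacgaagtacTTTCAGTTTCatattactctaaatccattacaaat
The motif also stood in 18 of 30 promoters of interferon genes that were not called (60.0%), so its presence did not go with a call in each gene. The cAMP response element TGACGTCA, searched in the same way, was in 2.67% of all promoters, in 6 of 352 of the up-regulated genes (1.7%) and in 3 of 267 of the down-regulated genes (1.12%). These matches describe letters and no binding.

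Other immune genes were called in both directions. Of 47 genes of cytokines, chemokines and the interleukin-1 system, 6 were down-regulated and 3 up-regulated, with a median of -0.07. CXCL1, a chemokine that attracts neutrophils, fell from 2637, 2700 and 2697 to 572, 540 and 548, a difference of -2.27 in log2 (SE 0.1, adjusted p = 6.06e-09 from limma). IL1R1, the signalling receptor of interleukin-1, fell from 316, 274 and 228 to 122, 117 and 82.5, and IL18 fell from 715, 622 and 591 to 293, 292 and 313. These groups did not overlap, as the call requires. IL7, IL1B and CASP1 were also called down, and CSF3, IL7R and IL6R up, all at no more than 219 in any array. IL7, CASP1, IL1B, CSF3, IL7R and IL6R each lost the call in at least 1 fit without 1 array. IL7 lost it in all 6 such fits (adjusted p = 0.111 to 0.24 from limma), and CASP1 in all but the one without LHR+ replicate 1 (0.115 to 0.24). The call of IL1B was lost without LHR+ replicate 1 or any 1 LHR- array, that of CSF3 without LHR+ replicate 1 or LHR- replicate 2, that of IL7R without LHR+ replicate 1 or 2 or LHR- replicate 2, and that of IL6R without LHR- replicate 3. With the 6 arrays alone CASP1, CSF3, IL1B and IL7R lost the call, with a pseudocount of 16 CSF3, IL1B and IL7, and with an intensity trend CSF3 and IL7. Of 31 antigen presentation genes, 2 were down-regulated (PSMB9 and ULBP2) and none up-regulated, with a median of -0.22. PSMB9, a subunit of the immunoproteasome, went from 128, 98.3 and 120 to 20.5, 24.7 and 20.9.

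Of 39 genes of death receptors, caspases and the BCL2 family, 3 were down-regulated (TNFSF10, FAS and BCL2L11) and 1 up-regulated (CFLAR), with a median of -0.07. FAS, a death receptor, fell from 268, 308 and 250 to 69.1, 119 and 124. BCL2L11, the pro-apoptotic protein BIM, fell from 623, 658 and 557 to 244, 276 and 246. CFLAR, an inhibitor of caspase 8 activation, rose from 587, 577 and 543 to 1300, 1109 and 1284 by its brightest probe set, and by 0.35 on the log2 scale, below the fold threshold, when all its probe sets were averaged. TNFSF10, the death ligand TRAIL, was at 78.5 to 90.2 in LHR- and 4.73 to 20.4 in LHR+ cells, and its call was lost with the 6 arrays alone (adjusted p = 0.103 from limma). Of 20 p53 target genes, DDB2 was called up and GDF15 and FAS down, with a median of -0.17. DDB2, at 1.04, fell short of the fold threshold under equal array medians (1.00), a pseudocount of 16 (0.99) and quantile normalization (0.96), and without LHR- replicate 2 (0.85).

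Genes of G2/M and mitosis lay slightly lower in LHR+ cells as a list. Of 48 genes, 47 had log2 fold changes below 0, with a median of -0.39 beside -0.00345 over all genes. An adjusted p under 0.1 from limma was reached by 31 of them, all lower, and by 26 with equal array medians and 28 with quantile normalization. One, BUB1, passed the fold threshold, so that 2.08% of the list was called down beside 1.86% of all genes. BUB1, a kinase of the spindle checkpoint, was at 1306, 1398 and 1291 in LHR- cells and at 567, 509 and 584 in LHR+ cells. AURKA, another mitotic kinase, was at 8821, 9348 and 8906 and at 7241, 7108 and 7733, a difference of -0.29 in log2 (adjusted p = 0.0492 from limma). TTK and KIF14, of the checkpoint and of cytokinesis, both had log2 fold changes of -0.80. MKI67 and CDK1 did not reach an adjusted p under 0.1. Of 50 genes of DNA replication and G1/S, 40 were below 0 with a median of -0.16, and 1 was called, CDKN1C, up. CDKN1C, the cyclin-dependent kinase inhibitor p57, was at 312, 295 and 358 and at 801, 852 and 744 by its brightest probe set, but its other 4 probe sets were not called.

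Of 35 genes of glycolysis and the hypoxia response, 2 were up-regulated (BNIP3 and EGLN3) and none down-regulated, so that 5.71% of the list was called beside 4.2% of all genes. The median was 0.08, or 0.04 with equal array medians. EGLN3 missed the fold threshold with a pseudocount of 16 (0.97). An adjusted p under 0.1 from limma was reached by 13 genes on the higher side and 1 on the lower side, and by 7 and 1 with equal array medians. HK2, a hexokinase, was at 726, 590 and 829 and at 1548, 1494 and 1204, a log2 fold change of 0.99, and ADM, the vasodilator adrenomedullin, was at 0.97, both just short of the fold threshold. EPAS1, the transcription factor HIF-2α, was at 5118, 5059 and 5335 in LHR- cells and at 8390, 9072 and 8899 in LHR+ cells. LDHA and PGK1, enzymes of glycolysis, did not pass the test. Of 41 aldo-keto reductase, glutathione and NRF2 target genes, 2 were up-regulated (AKR1B10 and GSTP1) and 1 down-regulated (GSTT1), which is 7.32% of the list, with a median of 0.19. AKR1B10, which reduces retinal and other aldehydes, rose from 197, 229 and 239 to 1083, 1294 and 1075.

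Of 28 retinoid genes, RBP7 was called up and TGM2 and ALDH1A3 down, with a median of -0.18. ALDH1A3, which oxidizes retinal to retinoic acid, fell from 700, 625 and 570 to 248, 202 and 214. The call of TGM2, a transglutaminase, rested on 1 of 4 probe sets. None of 28 genes of cholesterol and fatty acid synthesis (median -0.02), 9 metallothioneins (0.29) or 26 HOX genes (0.05) was called by limma, while 5, 1 and 1 of them reached an adjusted p under 0.1. None of 37 cytosolic ribosomal protein genes was called or reached an adjusted p under 0.1, and their median was -0.07, or 0.04 after quantile normalization. Of 33 cancer-testis antigens, MAGEA12 and MAGEA6 were called down and none up, with a median of 0.33, or 0.1 with a pseudocount of 16, and 22 were below 16 in both groups. These MAGE genes are near-identical to their relatives, and the probes may read several.

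Of 54 genes of potassium, calcium and sodium channels, 4 were down-regulated and 2 up-regulated (KCNQ1 and KCNJ16), with a median of 0.1. KCNK1, a background potassium channel, was at 2408, 2404 and 2383 in LHR- cells and at 279, 217 and 281 in LHR+ cells, with a log2 fold change of -3.22 (SE 0.13, adjusted p = 2.67e-09 from limma). KCNT2, a sodium-activated potassium channel, fell from 694, 658 and 566 to 58.7, 50.0 and 74.3. KCNK5 and CACNA2D3 were the other 2 called down. The call of KCNJ16 was lost with the 6 arrays alone, with a pseudocount of 16, and without LHR+ replicate 1 or LHR- replicate 1.

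The LHR+ cells with LH were set beside these genes as values, without a test. RBP7 had group means of 2202 to 2480 at the 4 times, beside 2637 without LH, and TIMP3 had means of 179 to 243, beside 149. QPCT was at 809, 842, 798 and 539 at 1, 4, 8 and 20 h. Several genes had a level at 20 h that lay nearer to LHR- cells. OXTR was at 2739 at 20 h, OR7E19P at 252 and COL1A2 at 4180, whereas LUM was at 223 and ERBB4 at 267, both still far below LHR- cells. ZNF114 lay further from LHR- cells, with 2553 at 8 h and 4241 at 20 h.

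**Figure D4:**
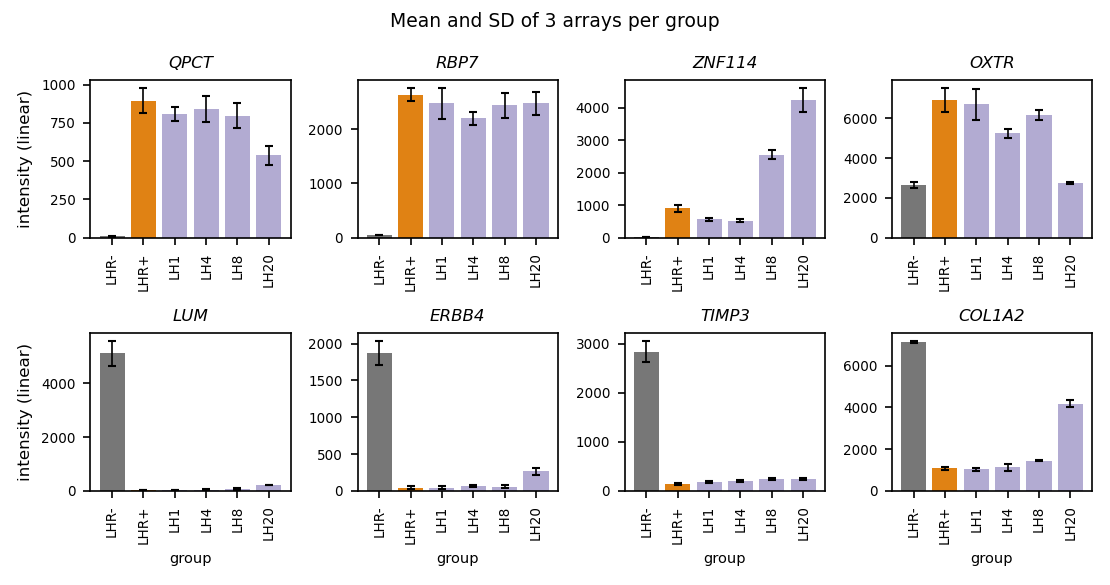
Mean intensity (bars, linear y axis from 0) with the SD of 3 arrays (error bars) for 8 genes in LHR- cells (grey), LHR+ cells without LH (orange) and LHR+ cells after 1, 4, 8 and 20 h of LH (violet). RBP7, TIMP3 and LUM stay apart from LHR- cells in all 5 LHR+ groups, while OXTR at 20 h (2739) is close to the LHR- level.

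Genes that lie next to each other on a chromosome were examined last, as a description. Of the brighter genes, those with a mean above that of the median gene, 9874 were ordered along the chromosomes with the RefSeq gene table, and 48.6% of them were above 0. On chromosome 10, 78.0% of 404 genes were above 0 and the median log2 fold change was 0.24. The medians of the 3 LHR+ arrays, taken against the LHR- mean, were 0.23, 0.24 and 0.22, and those of the LHR- arrays 0.01, 0.01 and 0.00. On chromosome 22, 13.0% of 215 genes were above 0, with a median of -0.24 and array medians of -0.27, -0.21 and -0.26 in LHR+ cells. The medians of chromosomes 11, 9, 8 and 4 were 0.15, 0.12, 0.1 and -0.12, and the other chromosomes lay between -0.08 and 0.04. The 12 arrays with LH lay on the same side of 0 for chromosomes 10 and 22. Most of the genes in these shifts differed by less than a fold change of 2, as 19 of the 404 genes of chromosome 10 were called up and 2 down. Over the 9874 ordered genes, 1.8% were called up and 0.891% down.

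In sliding windows of 15 neighbouring genes, the medians ranged from -0.41 to 0.68. Windows with a median of at least 0.3 joined into 23 runs that held 728 genes, and windows of -0.3 or lower into 7 runs with 185 genes. The longest runs on the higher side were 94 genes from TMEM223 to CHKA on chromosome 11 (median 0.38, 88.3% above 0), 73 genes from ZMYND11 to YME1L1 on chromosome 10 (0.42, 89.0%), and 52 genes from BAMBI to ARID5B on the same chromosome (0.41, 88.5%). The last of these includes BAMBI, which was called down. The longest run on the lower side held 51 genes from CCDC134 to SHANK3 on chromosome 22 (median -0.32), of which 47 were below 0. QPCT ended a run of 15 genes that began with TTC27 on chromosome 2, with a median of 0.33 and no other called gene. Of the genes in the higher runs 47 were called up (6.46%) and 1 down. Of those in the lower runs 6 were called down (3.24%) and 1 up. Over all ordered genes 1.8% were called up and 0.891% down. Because the runs were found with the same fold changes, these counts describe them and test nothing. The border genes of the runs were chosen in the same way.

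**Figure D5:**
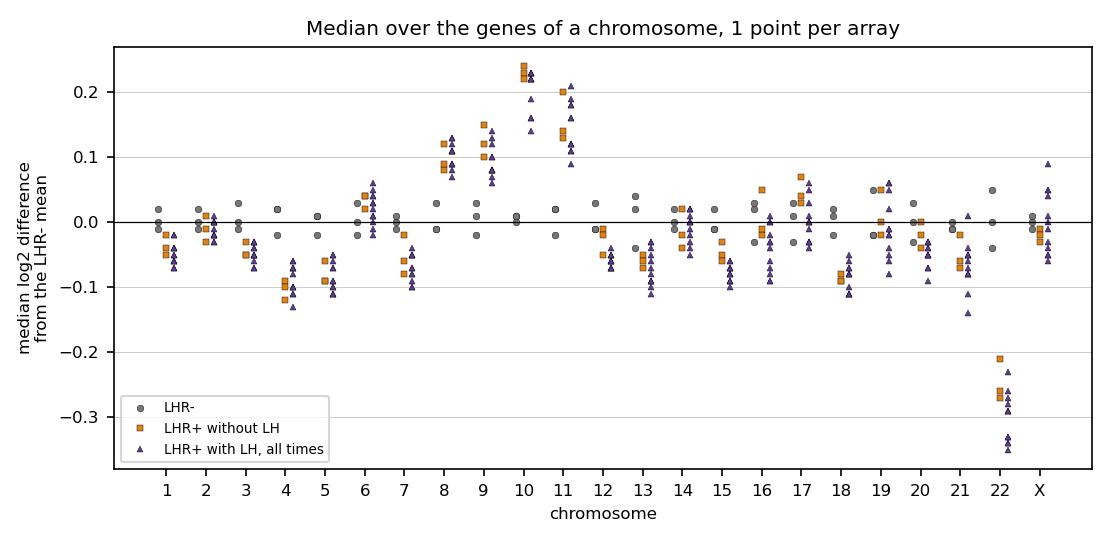
Median log2 difference from the LHR- mean (y axis) over the brighter genes of each chromosome (x axis), with 1 point per array for LHR- cells (grey circles), LHR+ cells without LH (orange squares) and LHR+ cells with LH (violet triangles). The 3 LHR+ arrays without LH lie above 0.2 on chromosome 10 and below -0.2 on chromosome 22, while the LH20 arrays lie at 0.14 to 0.16 on chromosome 10.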

How the data were processed

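Total RNA of SKOV-3 cells was amplified with the NuGEN Ovation system, and the labelled cDNA was hybridised to Affymetrix U133 Plus2 arrays. The 18 arrays in 6 groups of 3 were grouped by their labels. The authors deposited normalised probe set intensities in a single file on a linear scale. The submitters' processing notes name PLIER without a version, whereas the study's methods name RMA, so the summary method is unsettled. Its background and scaling affect dim probe sets most. Array medians were 46.7 to 57.7 and the lowest intensity was 0.0317. The number of arrays limits the precision.

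From these intensities 62 control probe sets were left out, and log2(intensity + 1) of 54613 probe sets was fitted with limma 3.58.1 in R 4.3.3 as 6 group means over all 18 arrays. Data were handled with Python 3.11.15 and pandas 2.3.3 and figures drawn with matplotlib 3.10.9. The fit was tried on simulated arrays with independent normal noise and known changes in brighter probe sets. Such arrays do not cover changes of the dimmest probe sets or arrays that deviate together. Calls needed p under 0.05, adjusted p under 0.1 and a fold of 2, without overlap of the groups. A gene was read by its brightest probe set that lists that gene alone, and 19735 of 19775 genes matched the RefSeq table (GRCh38.p14). The genome build of the array annotation is not given in the sources used here.

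Named were LHCGR, the 12 largest changes per direction among called genes of at least 200 in the higher group, the 6 most abundant called genes per direction, and up to 4 called members per list and direction. Other called list members, and members near a threshold, were added once their values were known. The members and lists were chosen with earlier results of these data known. Alternatives were a pseudocount of 16, other scalings, filters, fits and thresholds, the replicate number as a block, and leaving out each array. Replicates 1 to 3 were not treated as pairs.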

Additional observations from a re-analysis of the deposited data

How the results depend on the processing

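Of 147 named genes that were called, 86 kept the call in all 20 alternative settings, 104 in every setting but the mean of all probe sets, and none changed direction. The numbers of calls depended on how dim probe sets and the variance were treated, and the balance of up and down calls also on the scaling. A pseudocount of 16 gave 1102 probe sets (572 up, 530 down) and 303 genes up. The probe sets brighter than the median one gave 978 (626 up, 352 down), with 515 genes of which 186 were down. The 6 arrays alone gave 1286 probe sets (642 up, 644 down) and 632 genes (320 up, 312 down), without the excess of up calls among probe sets. That excess was also smaller with equal array medians (889 probe sets up, 858 down) and quantile normalization (922 up, 883 down) than in the main fit (1009 up, 828 down). An unmoderated test of the 2 groups gave 956 probe sets (469 up, 487 down) and 500 genes, 251 of them up. Without a fold threshold there were 5668 probe sets (3328 up, 2340 down) and 2763 genes (1585 up, 1178 down). Equal array medians moved the median of chromosome 10 to 0.2 and that of chromosome 22 to -0.28, and windows of 25 genes lowered the highest median to 0.57. Without any one array, 784 to 867 genes were called (428 to 518 up, 334 to 380 down) and 1693 to 1994 probe sets (897 to 1233 up, 739 to 803 down), and LHCGR lay between -0.06 and 0.41. The cause of these changes was not tested.

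With the replicate block 1822 probe sets (1004 up, 818 down) and 828 genes (468 up, 360 down) were called, and ERBB3, IL1B and PTGS2 lost the call. Same-numbered arrays correlated in their deviations at 0.1045, 0.03734 and 0.01137, and the other pairs of arrays at -0.06941 to 0.02189. The values 0.1045 and 0.03734 lay above that range, and 0.01137 lay within it. These values do not settle whether the numbers mark pairs, and the main fit did not treat them as pairs. Dim probe sets carry the least certain folds, 3 arrays per group limit the precision, and transfection cannot be told apart from receptor expression.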
